A study of Mus musculus with 20 samples.

Results

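Axon guidance ligands and receptors were taken as every gene whose symbol names a semaphorin of classes 3 to 7, a class A to D plexin, a neuropilin, a Slit, a Robo, an ephrin, an Eph receptor, a netrin or an Unc5 receptor. The rule found 68 of the 18193 genes measured, and 67 of them encode proteins. The remaining symbol, Plxna4os1, is an RNA from the strand opposite Plxna4 and stayed near background, with group means from 37.3 to 90.7. The 67 genes were 20 semaphorins, 9 plexins, 2 neuropilins, 3 Slits, 4 Robos, 5 ephrin-A, 3 ephrin-B, 9 EphA, 4 EphB, 4 netrin and 4 Unc5 genes, that is 35 ligands and 32 receptors. Total RNA was measured on 20 single-colour oligonucleotide arrays, 5 per group, in progenitor cells of the mouse brain that the labels call cell lines. The 4 groups were control embryonic progenitors, embryonic progenitors transduced as a genetic modification, control postnatal progenitors and transformed postnatal progenitors. The labels name neither the introduced sequence nor the transforming agent, and give no strain, age, sex or brain region. They number the samples of a group without saying that these came from separate cultures or lines, so a p-value reflects no more than the scatter among these samples, and that scatter may be technical.

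Axon guidance genes encode the signals that steer growing neurites and migrating cells, and the receptors that read them. Semaphorins act through plexins, and the secreted class 3 members mostly bind a neuropilin that pairs with a plexin. Slits repel through Robo receptors, and netrins attract through Dcc or repel through Unc5. Ephrins and Eph receptors signal at contacts between cells, where ephrin-A proteins are held by a lipid anchor and ephrin-B proteins span the membrane. In glia, several of these systems guide migrating oligodendrocyte precursors and set cell borders.

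Each gene was represented by 1 probe set, and its signal is a linear intensity in arbitrary units. Signals of different probe sets cannot be set against each other, so levels are compared between groups within a gene. The summed marker signals given further on are an exception, and the brightest probe sets weigh most in them. Background, set on each array by its 27 bacterial control probe sets, lay between 107 and 221. Of the 67 genes, 58 lay above it on all 5 arrays of at least 1 group, or 86.6%, against 71.7% of all genes. Epha10 lay below it on every array. The glial progenitor markers Olig2 and Sox2 were bright in every group, whereas Sox10 was above background on only 2 of 5 embryonic transduced arrays. Olig2 was lower in embryonic transduced cells than in control, with means of 37229 against 70639. Pdgfra, Cspg4 and Fabp7 were lower there too, at 596 against 7629, 1261 against 4278 and 34427 against 127283. Sox2 and Nes did not pass the test there (limma adjusted p = 0.931 and 0.761). Markers of other cell types were mixed. Pecam1 and Tie1 of the endothelium, Aif1 and Itgam of microglia and Mog of mature oligodendrocytes were below background in every group. Csf1r of microglia and Mbp of oligodendrocytes were above it on all 5 arrays of every group, with means of 569 to 862 and 811 to 3521. Kdr of the endothelium was above it on all arrays of both modified groups, with means of 504 and 347, and rose in embryonic cells (adjusted p = 0.0117), and Cdh5 was above it on 4 of 5 embryonic control arrays (mean 218). Of 6 pericyte and fibroblast markers, 3 were above background on all 5 embryonic control arrays, Col1a1, Col1a2 and Lum, with means of 284, 641 and 323. None of the 6 was so in postnatal control. Col1a1 and Col1a2 were lower in postnatal than in embryonic control (limma adjusted p = 0.0026 and 0.00483). Glial markers differed between the controls as well. From embryonic to postnatal control, means went from 243 to 10169 for S100b, 140 to 5435 for Gfap and 274 to 2273 for Aqp4. They went from 2601 to 25363 for Sox10 and from 7629 to 47465 for Pdgfra. Aldh1l1, Mbp and Mag were higher in postnatal control too, while Nes and Slc1a3 were lower. In bulk samples, fewer cells of a type and less RNA per cell cannot be told apart. Where a dim group lay above background on fewer than 4 of its 5 arrays, signals or a lower bound are given in place of a fitted change. Within postnatal control, arrays 4 and 5 stood apart, with signals of the proliferation marker Mki67 of 5929 and 4351 against 34816 to 37266 on arrays 1 to 3 and 3848 to 5403 in postnatal transformed. Postnatal results are therefore given without arrays 4 and 5 as well where this changed a call, and for some other genes.

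Ligands, like all genes of the arrays, rose more often than they fell in both comparisons, whereas receptors fell more often than they rose in embryonic cells. Changes are fitted log2 changes of signal + 16 with their SE, and mean signals are given with the SD over the 5 arrays of a group. A gene was called where the limma adjusted p was under 0.05 and the groups differed 2-fold or more. Of the 67 genes, 28 (41.8%) were called after transduction of embryonic cells, against 14.4% of all genes, and 22 (32.8%) after transformation of postnatal cells, against 16% of all genes. The embryonic calls were 16 rises and 12 falls, where 8.61% and 5.74% of all genes rose and fell. The postnatal calls were 13 rises and 9 falls, where 9.56% and 6.4% of all genes did. Control and modified groups did not overlap for 37 of the 67 genes in the embryonic and 25 in the postnatal comparison, against 34.8% and 32.2% of all genes. The median log2 change of the 67 genes was 0.30 in embryonic cells, against 0.08 over all genes, and 0.25 in postnatal cells, against -0.00 over all genes. Of the 35 ligands, 12 rose and 4 fell in embryonic cells and 9 rose and 5 fell in postnatal cells. Of the 32 receptors, 4 rose and 8 fell in embryonic cells, and 4 rose and 4 fell in postnatal cells.

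**Figure D1:**
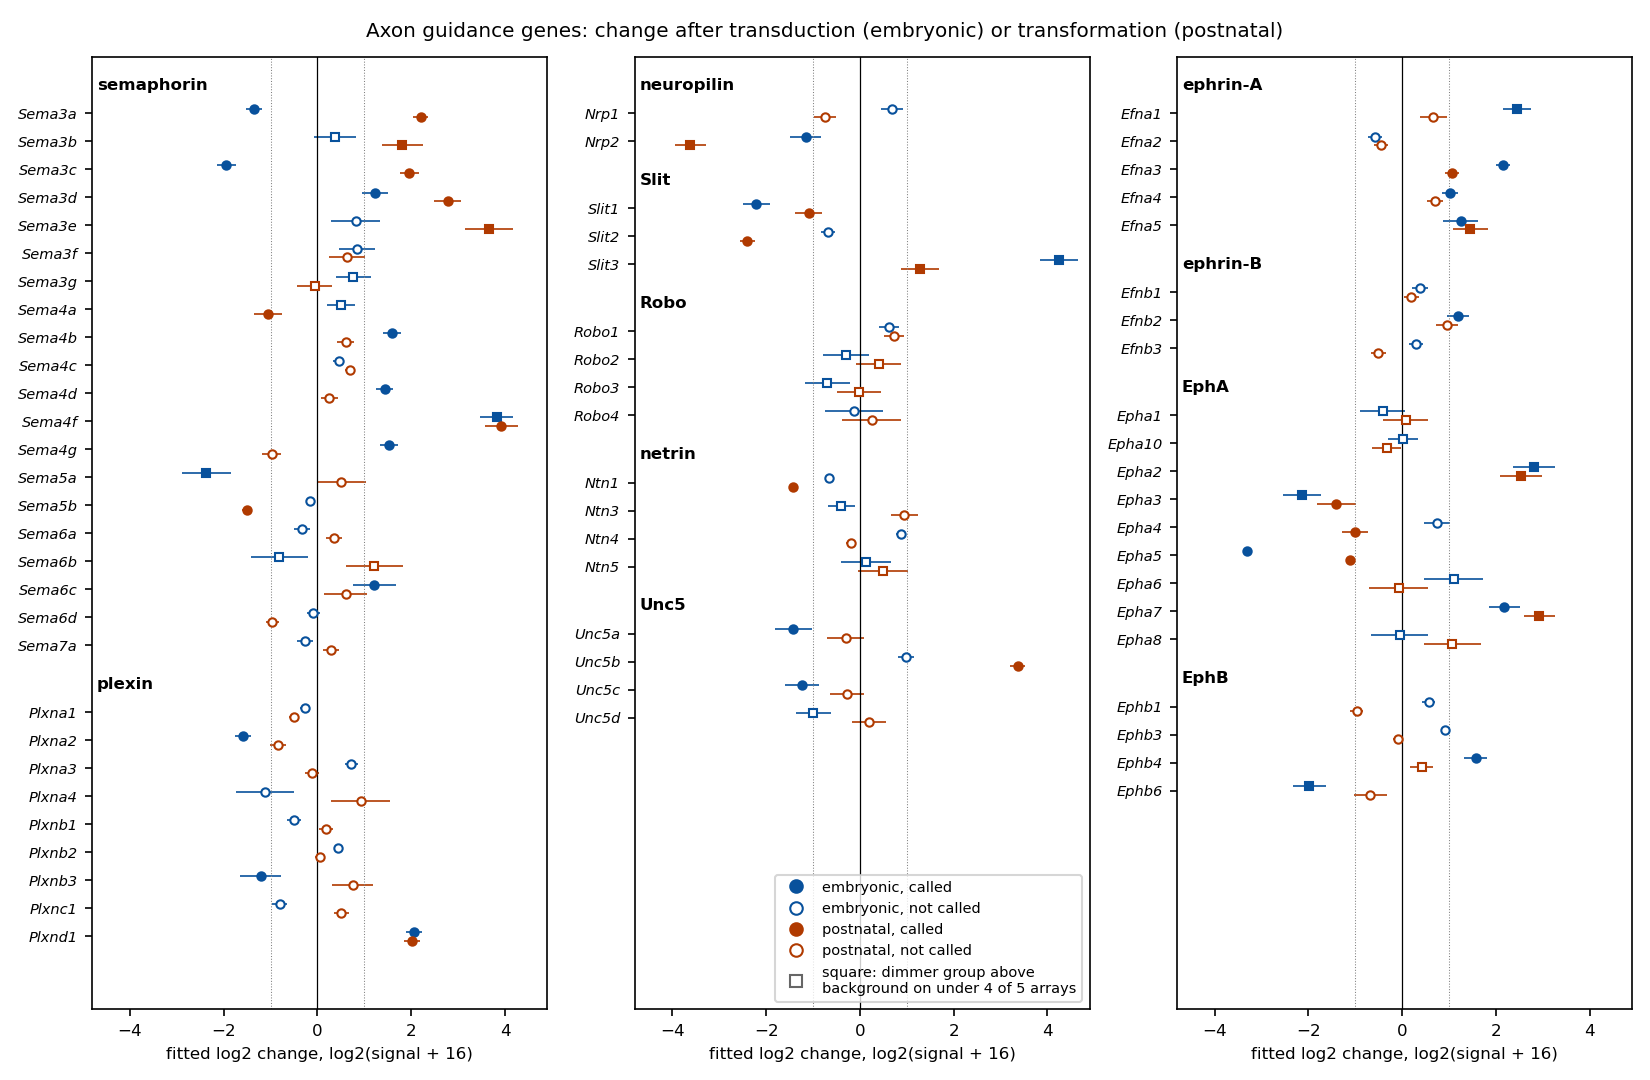
Fitted log2 change (horizontal axis, on the log2(signal + 16) scale, bars ± SE) of the 67 axon guidance genes in the embryonic (blue) and postnatal (red-brown) comparison, by family, with dotted lines at a 2-fold change. Filled symbols were called and squares mark changes with a dim group, whose size is not exact. Sema3a and Sema3c lie on opposite sides of 0 in the 2 comparisons, and no Robo gene is filled.

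The 2 comparisons share no samples but take their spread from the same fit, so they are not independent tests. The same gene was called in both in 14 cases. Of these, 8 rose in both (Sema3d, Sema4f, Plxnd1, Slit3, Efna3, Efna5, Epha2 and Epha7), 4 fell in both (Nrp2, Slit1, Epha3 and Epha5), and Sema3a and Sema3c fell in embryonic and rose in postnatal cells. Over all genes, 2.74% rose in both, 1.30% fell in both and 0.852% fell in embryonic and rose in postnatal cells. Another 14 of the 67 were called in the embryonic comparison alone, 8 higher and 6 lower, where 5.40% and 3.58% of all genes were. In the postnatal comparison alone 8 were called, 3 higher and 5 lower, where 5.96% and 4.63% of all genes were. In neither were 31 of the 67, against 75.1% of all genes. Without postnatal control arrays 4 and 5, the postnatal calls were 15 rises, which included all 13, and 10 falls, which included 7 of the 9. The falls of Epha3 and Epha4 were then no longer called, and Sema5a, Plxnb3, Plxna2, Nrp1 and Ephb1 were called in addition. Markers of cell types, glial progenitors among them, moved between the same groups. In embryonic transduced cells 7 of 8 neuron markers fell and none rose, with a summed signal of 22364 to 24698 against 59735 to 63831 in control, and 4 of 7 glial progenitor markers fell and none rose, with sums of 119393 to 135161 against 254769 to 292030. Of 5 astrocyte markers 2 fell there, with sums of 6913 to 7299 against 17517 to 22065. In postnatal transformed cells 3 of 4 cell cycle markers fell, 3 of 5 astrocyte markers fell and 1 rose, 3 of 8 neuron markers fell and 2 rose, and 2 of 4 mature oligodendrocyte markers fell. The sums were 36442 to 39095 against 12039 to 51240 for astrocytes, 44991 to 47474 against 50474 to 60597 for neurons and 1040 to 1638 against 1785 to 8518 for oligodendrocytes. The brightest probe sets weigh most in such sums, so these are no measure of a cell type. Of the astrocyte markers, S100b went from a mean of 10169 to 26636. Gfap went from 5435 to 279, Aqp4 from 2273 to 134, Aldh1l1 from 2752 to 223 and Slc1a3 from 12239 to 10679. In embryonic control Map2 was the brightest neuron marker (mean 51041) and Fabp7 the brightest glial progenitor marker (127283). The summed cell cycle signal was 14273 to 116748 in postnatal control and 18065 to 22131 in postnatal transformed. As a measure of RNA quality, the log2 ratio of the 3' to the 5' Gapdh control lay between -0.43 and -0.32 in embryonic control, -0.35 and -0.26 in embryonic transduced, -0.51 and -0.41 in postnatal control, and -0.59 and -0.48 in postnatal transformed. The part of these markers and of RNA quality in the results was not tested.

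Among the 7 secreted class 3 semaphorins, 5 rose and none fell in postnatal transformed cells, whereas 1 rose and 2 fell in embryonic transduced cells. Sema3a, a repellent that acts through Nrp1 and A plexins, changed in opposite directions. Its signals were 3659, 3794, 4264, 4129 and 4633 in embryonic control and 1483, 1612, 1558, 1631 and 1631 in embryonic transduced. Every transduced array lay below every control array, and the log2 change was -1.36 ± 0.16 (adjusted p = 6.14e-07). In postnatal control its signals were 1124, 1185, 1171, 548 and 641, and in postnatal transformed 4005, 4193, 4377, 3847 and 4316. Here every transformed array lay above every control array, a change of 2.20 ± 0.16 (adjusted p = 3.26e-10) and of 1.82 ± 0.09 without arrays 4 and 5, the lowest of the control arrays. The difference between the responses was 3.56 ± 0.23 (adjusted p = 6.96e-11), and both other probe sets of Sema3a were called in the same directions.

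Sema3c, a class 3 ligand with roles in neural crest migration, did the same. Embryonic control arrays read 1234, 1401, 1545, 1529 and 1737, and transduced arrays 461, 319.9, 463, 333 and 318. All transduced arrays were lower (log2 change -1.94 ± 0.20, adjusted p = 5.91e-08). Postnatal control arrays read 339, 194, 261, 176 and 194 and transformed arrays 1146, 822, 961, 724 and 1015. All transformed arrays were higher (1.95 ± 0.20, adjusted p = 4.4e-08; 1.77 ± 0.22 without arrays 4 and 5). The difference between responses, 3.90 ± 0.28 (adjusted p = 3.61e-10), was the largest of the 67 genes, followed by that of Sema3a. A dimmer Sema3c probe set rose in postnatal cells (2.28) and had a value of -0.90 in embryonic cells, which was not called.

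Since Sema3a and Sema3c moved alike, the 250 bases before their annotated starts are shown, from RefSeq with build GRCm38.p6, at chr5:13396534-13396783, plus strand for Sema3a and chr5:17574566-17574815, plus strand for Sema3c. Both genes lie on chromosome 5. Capitals mark matches, on either strand, to any of 4 motifs. The GC box bound by Sp1 reads GGGCGG, and its reverse complement appears where the match is on the other strand. The TATA box was searched as TATAAA. The core of the hypoxia response element was searched as ACGTG, which also lies within the Myc E-box motif CACGTG.
Sema3a: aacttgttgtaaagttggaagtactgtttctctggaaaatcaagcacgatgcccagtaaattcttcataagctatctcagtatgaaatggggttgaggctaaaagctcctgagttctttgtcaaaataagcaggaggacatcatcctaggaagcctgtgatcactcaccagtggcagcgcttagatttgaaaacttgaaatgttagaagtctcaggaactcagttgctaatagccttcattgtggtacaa
Sema3c: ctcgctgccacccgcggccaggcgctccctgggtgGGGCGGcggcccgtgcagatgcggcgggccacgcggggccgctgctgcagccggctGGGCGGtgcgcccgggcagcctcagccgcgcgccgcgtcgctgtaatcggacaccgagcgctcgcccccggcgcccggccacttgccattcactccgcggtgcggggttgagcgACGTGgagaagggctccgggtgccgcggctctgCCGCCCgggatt
The windows differ in composition, with 40.8% G and C for Sema3a and 78.4% for Sema3c, against a median of 57.6% over 14452 genes of the arrays with an entry. That of Sema3a holds none of the 4 motifs. That of Sema3c holds 3 GC boxes and 1 ACGTG.

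Sema3d and Sema3e rose in postnatal transformed cells. Sema3d, a class 3 semaphorin, read 2384, 2207, 2988, 7483 and 6518 in postnatal control and 22891, 25177, 24536, 30880.2 and 26915 in postnatal transformed. Arrays 4 and 5 were the highest of the controls and still lay below every transformed array, so the change was 2.77 ± 0.29 (adjusted p = 4.69e-08) with them and 3.36 ± 0.21 without them. In embryonic cells it rose from 331, 459.6, 220.3, 199.6 and 228 to 639, 660.4, 499, 877 and 691. These groups did not overlap either (1.23 ± 0.29, adjusted p = 0.00136), and the postnatal rise was the larger by 1.55 ± 0.40 (adjusted p = 0.00372). The second Sema3d probe set rose in postnatal cells (3.36) and missed the test in embryonic cells (0.93, adjusted p = 0.0806). Sema3e, which binds Plxnd1 without a neuropilin, read 78.6, 119.8, 127, 129 and 317 in postnatal control, above background on 2 of 5 arrays, and 1788, 1862, 2198, 1796 and 2078 in postnatal transformed. All transformed arrays were higher (adjusted p = 4.3e-06), and all 3 other probe sets of Sema3e rose as well. Its embryonic means of 216 in control and 317 in transduced cells did not pass the test (adjusted p = 0.247), although 2 dimmer probe sets were called higher there. Sema3b rose in postnatal cells, with a mean of 92.9 ± 80.5 in control, where 1 array was above background, and 300.4 ± 68.1 in transformed cells (adjusted p = 0.00197). Sema3f and Sema3g were called in neither comparison on the probe sets used. For Sema3f the embryonic means were 282 ± 79 and 541 ± 204 (adjusted p = 0.0916), and the change reached 1.09 (adjusted p = 0.0308) without transduced array 4. Over the mean of all its probe sets the embryonic rise of Sema3f was called, at 1.44 (adjusted p = 0.000325). Sema3g was above background on 2 or 3 arrays of each group.

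In gene order on chromosome 5 (RefSeq, GRCm38.p6), Sema3d and Sema3a are neighbouring protein-coding genes, Sema3e follows after 3 others and Sema3c after a further 15. All 4 of these genes rose in postnatal transformed cells. In embryonic cells Sema3d rose, Sema3a and Sema3c fell and Sema3e was not called.

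Of the 6 class 4 semaphorins, which are anchored in the membrane, 4 rose in embryonic transduced cells and none fell, while in postnatal transformed cells 1 rose and 1 fell. Sema4f, found at synapses, rose in both. Its embryonic control signals were 195, 15.4, 65.1, 119 and 55.5, above background on 1 of 5 arrays, and its transduced signals 1244, 1213, 1330.2, 1049.8 and 1311. Postnatal control arrays read 319, 109, 174, 200.5 and 174, and transformed arrays 3205, 3284, 3078, 2816 and 2766. Modified arrays lay far above controls at both ages. The postnatal change was 3.92 ± 0.35 (adjusted p = 6.06e-09), and the embryonic one passed as well (adjusted p = 1.05e-08) with no exact size. The second Sema4f probe set rose in postnatal cells (2.31) and read 0.45 in embryonic cells, where it was not called (adjusted p = 0.449), so the embryonic rise rests on 1 probe set.

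Sema4b, Sema4d and Sema4g rose in embryonic cells with no overlap. Mean signals went from 1909.7 ± 483 to 5609 ± 625 for Sema4b (SD, n = 5; 1.59 ± 0.19, adjusted p = 4.36e-07). Sema4d, the ligand of Plxnb1, rose from 1146 ± 185 to 3100.4 ± 285 (1.43 ± 0.18, adjusted p = 1.02e-06). Sema4g rose from 1172 ± 137 to 3396 ± 168 (1.53 ± 0.20, adjusted p = 1.43e-06). None of these was called in postnatal cells, where the changes were 0.60 ± 0.19 for Sema4b, 0.25 ± 0.18 for Sema4d and -0.98 ± 0.20 for Sema4g, the last with no overlap and just under 2-fold (adjusted p = 0.000285). Without arrays 4 and 5 the change of Sema4d was 0.65 ± 0.12 (adjusted p = 8.19e-05), under 2-fold as well. Leaving out any of 6 postnatal arrays took Sema4g past 2-fold, to -1.02 to -1.15 (adjusted p from 1.76e-05 to 0.000501), whereas without arrays 4 and 5, its highest controls, it was -0.60 ± 0.16. The difference between the responses was called for Sema4g (-2.51 ± 0.28, adjusted p = 2.05e-07) and Sema4d (-1.18 ± 0.26, adjusted p = 0.000677), the latter at -0.79 ± 0.16 and under 2-fold without arrays 4 and 5. Sema4a fell in postnatal cells from 460.3 ± 206 to 198 ± 33.3 with overlapping groups (-1.05 ± 0.30, adjusted p = 0.00616), and leaving out postnatal control array 1 or 4 or transformed array 5 gave -0.85 to -0.98 (adjusted p from 0.0176 to 0.0262), under 2-fold. Sema4c was higher with no overlap at both ages and under 2-fold, by 0.45 ± 0.11 and 0.69 ± 0.11.

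Classes 5 to 7 span the membrane or carry a lipid anchor. Sema5a, a bifunctional cue, fell in embryonic cells, and Sema5b fell in postnatal cells. For Sema5a, embryonic control arrays read 491, 545, 435, 352 and 463 and transduced arrays 25.5, 50.7, 136, 41.1 and 242, above background on 1 of 5. The groups did not overlap (adjusted p = 0.000782), a second bright probe set fell too, and 2 dim ones had values of 1.41 and 0.21 that did not pass the test. Postnatal control arrays of Sema5a read 1044, 477, 597, 3806 and 3975. Arrays 4 and 5 were far above arrays 1 to 3, and the transformed signals, 2109, 1921, 1863, 1757 and 2069, lay between them. Its postnatal change was 0.51 ± 0.52 (adjusted p = 0.493) with all arrays and 1.51 ± 0.43 (adjusted p = 0.00564) without arrays 4 and 5. Sema5b mean signals fell from 4097 ± 511 to 1425 ± 109 in postnatal cells (-1.51 ± 0.09, adjusted p = 1.52e-11) and were 3774 ± 321 and 3376 ± 247 in embryonic cells. Of class 6, Sema6c rose in embryonic cells with overlapping groups, from 667 ± 482 to 1287 ± 248 (1.21 ± 0.46, adjusted p = 0.0392). That call was lost without any of 7 single arrays, at 0.93 to 1.26 (adjusted p from 0.0517 to 0.127), and another probe set of Sema6c had a change of -0.999. Sema6d, a ligand of Plxna1, was lower in postnatal transformed cells without overlap but under 2-fold (-0.96 ± 0.14, adjusted p = 4.32e-06), at -0.66 ± 0.08 without arrays 4 and 5 and at -1.04 to -1.09 (adjusted p from 1.23e-07 to 2.57e-06) without control array 2 or 3. Sema6a and Sema7a were called in neither comparison. Sema6b was near background, with means from 126 in postnatal control to 304 in postnatal transformed cells, and was called there only without control array 3 or transformed array 5 (adjusted p from 0.0445 to 0.0499).

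**Figure D2:**
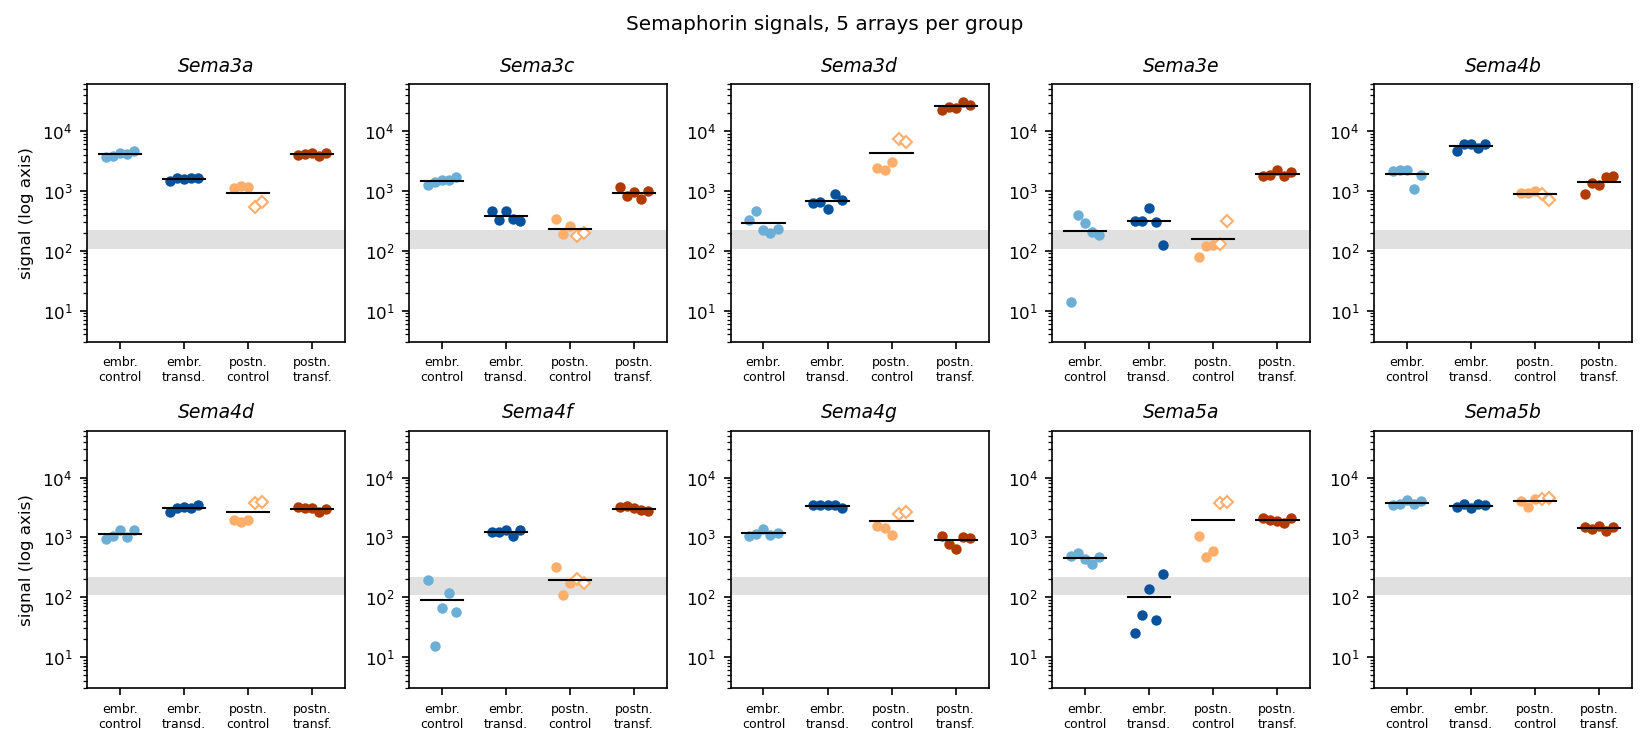
Signals (log axis, arbitrary units) of 10 semaphorins on each array, in embryonic control, embryonic transduced, postnatal control and postnatal transformed cells, with bars at the group means and the range of background levels in grey. Open diamonds are postnatal control arrays 4 and 5. Sema3a and Sema3c are low in embryonic transduced and postnatal control cells, and Sema5a shows the open diamonds far above the other postnatal control arrays.

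Of the 9 plexins, the semaphorin receptors, 1 rose and 2 fell in embryonic cells, and 1 rose and none fell in postnatal cells. Plxnd1, the receptor of Sema3e, rose in both. Embryonic control arrays read 236, 269, 396, 371 and 389.7 and transduced arrays 1429, 1536, 1696, 1322 and 1108. In postnatal cells, control arrays read 509, 662, 406, 399 and 549.8 and transformed arrays 2038, 2197, 2158, 2009.9 and 1871. Neither pair of groups overlapped, and the changes were 2.06 ± 0.18 (adjusted p = 3.26e-09) and 2.01 ± 0.18 (adjusted p = 3.83e-09), with a difference of -0.04 ± 0.25 (adjusted p = 0.921). Plxna2, a neuropilin partner, read 5854, 5877, 5786, 5698 and 5397 in embryonic control and 1831, 1723, 1811, 1944 and 2120.2 in embryonic transduced. All transduced arrays were lower (-1.60 ± 0.17, adjusted p = 9.14e-08), and 2 of its 3 other probe sets fell as well, the remaining one reading -0.41. In postnatal cells Plxna2 was lower without overlap, -0.84 ± 0.17, under 2-fold, and -1.23 ± 0.10 (adjusted p = 3.22e-10) without arrays 4 and 5, its lowest controls.

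Plxnb3, a receptor of Sema5a, read 5219, 4619.6, 3685, 24327 and 24488 in postnatal control. Arrays 4 and 5 were over the transformed signals of 14918, 14569, 14944, 14148 and 15599.7, and arrays 1 to 3 were below them. The postnatal change was 0.75 ± 0.44 (adjusted p = 0.197) over all arrays, 1.73 ± 0.28 (adjusted p = 1.78e-05) without arrays 4 and 5, and 1.12 without either alone, where it was called (adjusted p at most 0.0331). Embryonic control arrays of Plxnb3 read 1591, 1284, 1422, 1412 and 1205 and transduced arrays 559.7, 1117, 648, 734 and 226. These did not overlap (-1.21 ± 0.44, adjusted p = 0.0336). The SE of 0.44 also holds the split of postnatal control, since all 4 groups share 1 spread. The embryonic call was lost without embryonic control array 1, 3 or 4 or transduced array 1 or 5, at -0.88 to -1.20 (adjusted p from 0.0569 to 0.119). Sema5a, its ligand, had the same split of the postnatal control arrays. Plxnc1, the receptor of Sema7a, was called for the difference between responses (1.31 ± 0.23, adjusted p = 7.06e-05), with -0.81 ± 0.16 in embryonic and 0.51 ± 0.16 in postnatal cells. Plxna1, Plxna3, Plxnb1 and Plxnb2 had changes between -0.51 and 0.72, none of at least 2-fold. Plxna4 was called in neither response nor for their difference, with means from 273 to 779 and above background on at least 4 arrays of each group. Over the mean of all its probe sets it was called lower in embryonic cells (-1.27, adjusted p = 0.0277) and for the difference (2.36, adjusted p = 0.00462). Quantile normalization gave a called difference as well (2.21, adjusted p = 0.043).

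The difference between responses was called for both neuropilins on the probe sets used. Over the mean of all their probe sets both of these calls were lost, at -0.97 for Nrp1 and -0.86 (adjusted p = 0.0733) for Nrp2. Nrp2, the neuropilin of Sema3f and Sema3c, fell in both. Embryonic control arrays read 2369.6, 2974, 2242, 1810.4 and 1763 and transduced arrays 1049, 834, 838, 1144 and 1049. Postnatal control arrays read 2133, 2204, 2374, 1765 and 1179 and transformed arrays 218, 38.2, 213, 92.8 and 262, above background on 3 of 5. Modified arrays were lower without overlap at both ages, with a change of -1.16 ± 0.33 in embryonic cells (adjusted p = 0.00719) and an adjusted p of 7.5e-09 in postnatal cells. The embryonic fall was -0.85, under 2-fold, over the mean of all probe sets. The size of the postnatal fall depended on the probe set. A second one read -0.55 (adjusted p = 0.156) and another -1.47 (adjusted p = 0.000243). Nrp1, the neuropilin of Sema3a, passed the p-value limit but not 2-fold, at 0.69 ± 0.24 in embryonic and -0.74 ± 0.24 in postnatal cells (-1.10 ± 0.22 without arrays 4 and 5). The difference between its responses was -1.42 ± 0.34 (adjusted p = 0.00163).

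All 3 Slits were called in postnatal cells and 2 in embryonic cells, whereas none of the 4 Robo receptors was called in either. The postnatal calls of Slit1 and Slit3 were lost without certain single arrays and with an offset of 64. Slit1 fell in both. Its signals were 1535, 1183, 1678, 1562 and 1523 in embryonic control and 436, 509.8, 118, 263 and 386 in transduced cells. In postnatal control they were 662, 625, 686, 449 and 438 and in transformed cells 187, 257, 277, 319 and 259. The groups did not overlap, with changes of -2.21 ± 0.29 (adjusted p = 1.59e-06) and -1.09 ± 0.29 (adjusted p = 0.00368). Without postnatal transformed array 1 the latter was -0.98 (adjusted p = 0.0125), under 2-fold. The difference between the responses of Slit1 (1.13 ± 0.41, adjusted p = 0.0315) was not called without any of 6 single arrays, at 0.81 to 1.09 (adjusted p from 0.0423 to 0.0566), nor without arrays 4 and 5 (0.91 ± 0.44). Slit2 read 3112, 2952, 3484, 2959 and 2822 in postnatal control and 483, 641, 480.1, 679 and 581 in transformed cells. All transformed arrays were lower (-2.40 ± 0.15, adjusted p = 3.17e-11). In embryonic cells Slit2 was lower without overlap and under 2-fold (-0.67 ± 0.15, adjusted p = 0.00116), and the responses differed by -1.72 ± 0.22 (adjusted p = 1.3e-06).

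Slit3 went the other way. It lay below background on every control array of both ages, from 18.4 to 43.5. In embryonic transduced cells it read 809.8, 917, 729, 674 and 499.7, at least 3.97-fold higher than in control (adjusted p = 2e-08). In postnatal transformed cells it read 182, 173, 64.7, 80.8 and 13.4, above background on 2 of 5 arrays and overlapping with control (adjusted p = 0.0139), a call lost without transformed array 1 or 2. The responses of Slit3 differed (adjusted p = 0.000246), by an amount that its background signals leave inexact. The "at least" folds set the mean of the brighter group against the higher of background and signal on each array of the dimmer group. Robo1, the receptor in neurons and many other cells, was higher by 0.62 ± 0.21 in embryonic (adjusted p = 0.0229) and 0.73 ± 0.21 in postnatal cells (adjusted p = 0.00755), with overlapping groups and under 2-fold. Its group means ran from 2095 ± 454 in postnatal control to 5952 ± 2479 in embryonic transduced cells, where array 1 alone read 10292. Robo2 and Robo3 had means of at most 315, and Robo4, the endothelial member, lay above background on 4 arrays of each group with means from 198 to 262.

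**Figure D3:**
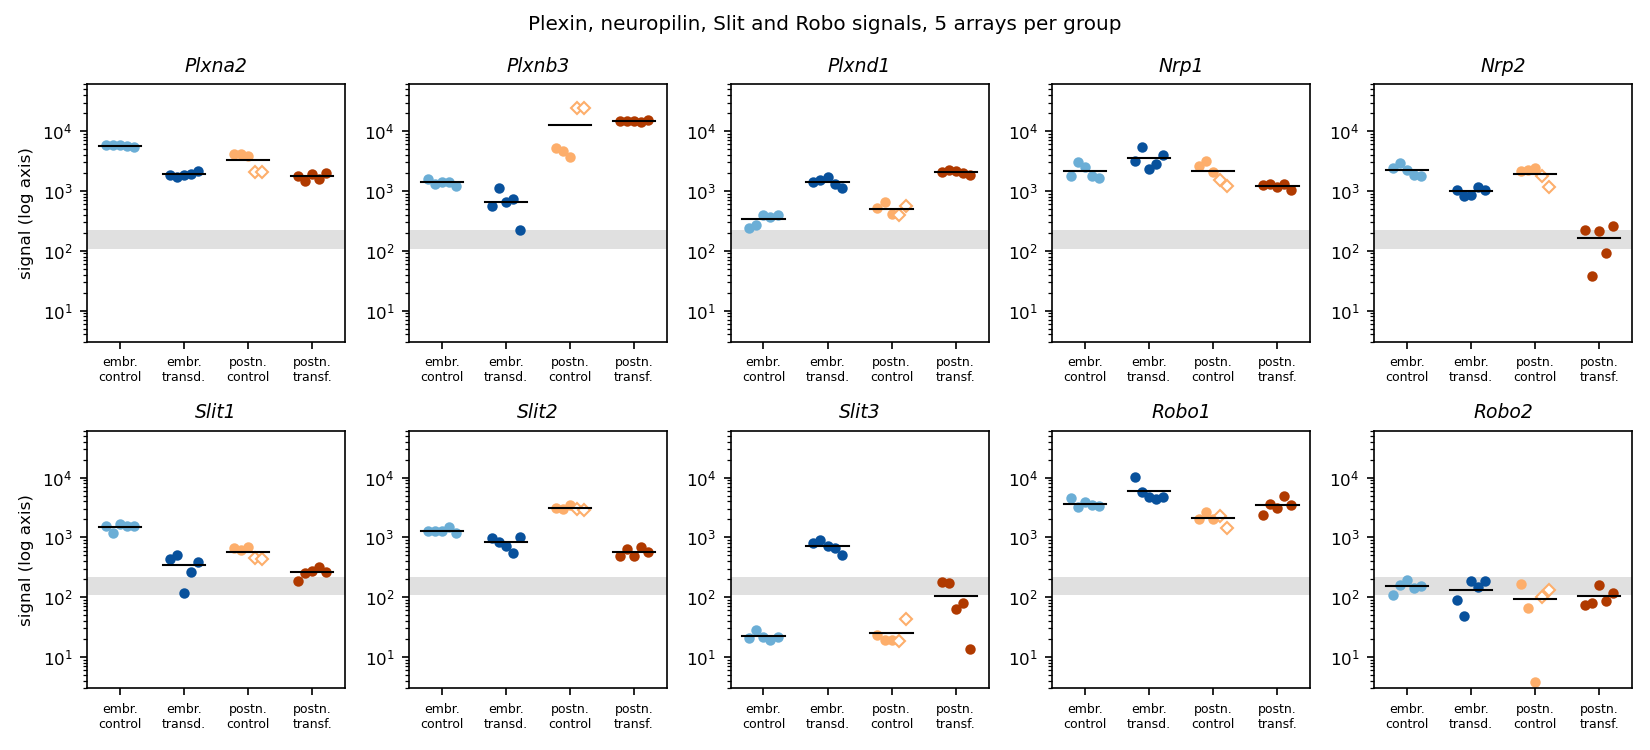
Signals (log axis, arbitrary units) of plexins, neuropilins, Slits and Robos on each array of the 4 groups, with bars at the group means, background range in grey, and open diamonds for postnatal control arrays 4 and 5. Plxnd1 rises in both comparisons, Slit3 leaves the background in embryonic transduced cells, and Plxnb3 splits within postnatal control.

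Ephrin-A genes were the family with the largest share of rises in embryonic cells, 4 of 5, with a median log2 change of 1.25, and 2 of 5 rose in postnatal cells. These ligands bind mainly EphA receptors. Efna3 read 853, 568, 791, 611 and 682 in embryonic control and 2988, 3466, 3210.3, 3368 and 2640.02 in transduced cells. Every transduced array was higher (2.15 ± 0.15, adjusted p = 1.06e-10), and a second probe set rose by 1.29. In postnatal cells Efna3 read 805, 733, 488, 634 and 583 in control and 1277, 1402, 1389, 1140.2 and 1585 in transformed cells. These did not overlap either (1.06 ± 0.15, adjusted p = 3.66e-06), although without control array 3 the change was 0.97 (adjusted p = 1.36e-05), under 2-fold. Efna1, induced by cytokines in other cells, read 56.8, 155, 197, 189 and 199 in embryonic control, above background on 2 of 5 arrays, and 785, 811, 1062, 917 and 837 in transduced cells. All transduced arrays were higher (adjusted p = 5.4e-07). Its postnatal means of 345 ± 108 and 534 ± 78.4 did not pass the test (adjusted p = 0.0775), and the responses differed (adjusted p = 0.0014). Without arrays 4 and 5 the postnatal change of Efna1 was 0.87 ± 0.35 (adjusted p = 0.0479), under 2-fold. Over the mean of all its probe sets the postnatal rise was called, at 1.02 (adjusted p = 0.0264).

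Efna4 and Efna5 rose as well. Efna4 read 1174, 1336, 1142, 1361 and 932 in embryonic control and 2131, 2473, 2237, 2830.3 and 2432 in transduced cells. There was no overlap, and the change was just past 2-fold (1.02 ± 0.17, adjusted p = 3.04e-05). Without control array 5 or transduced array 4 it was 0.94 to 0.96 (adjusted p from 0.000161 to 0.000169), and scaling each array to its 75th percentile gave 0.93 and quantile normalization 0.90, all under 2-fold. Efna5, a repellent of retinal axons, read 933, 1179, 945, 1075 and 1076 in embryonic control and 2658, 1801, 2088, 3499 and 2694 in transduced cells. Its transduced arrays were all higher (1.25 ± 0.37, adjusted p = 0.0101). In postnatal cells it rose to 463 ± 151, from a control mean of 188 ± 124 with 3 of 5 arrays above background (adjusted p = 0.00293). The second Efna5 probe set was near background and was called in neither. Efna2 had log2 changes of -0.58 ± 0.15 in embryonic and -0.45 ± 0.15 in postnatal cells, under 2-fold.

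Efna1, Efna3 and Efna4, which all rose in embryonic cells, are consecutive protein-coding genes on chromosome 3 in the RefSeq order of GRCm38.p6. The 250 bases before their starts are shown, with the same motifs in capitals, at chr3:89280952-89281201, minus strand for Efna1, chr3:89322940-89323189, minus strand for Efna3 and chr3:89338029-89338278, minus strand for Efna4. For Efna1 and Efna3, 2 starts are listed and the first was used.
Efna1: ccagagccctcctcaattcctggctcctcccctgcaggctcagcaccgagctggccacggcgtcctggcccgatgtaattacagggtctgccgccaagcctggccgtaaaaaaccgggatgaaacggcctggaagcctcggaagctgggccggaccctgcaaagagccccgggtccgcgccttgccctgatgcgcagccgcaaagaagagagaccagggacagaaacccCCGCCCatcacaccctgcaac
Efna3: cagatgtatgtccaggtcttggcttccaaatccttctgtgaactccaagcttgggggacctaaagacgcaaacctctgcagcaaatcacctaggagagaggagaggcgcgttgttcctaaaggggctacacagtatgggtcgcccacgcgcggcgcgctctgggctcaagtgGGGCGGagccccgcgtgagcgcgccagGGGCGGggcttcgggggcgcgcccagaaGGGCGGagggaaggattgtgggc
Efna4: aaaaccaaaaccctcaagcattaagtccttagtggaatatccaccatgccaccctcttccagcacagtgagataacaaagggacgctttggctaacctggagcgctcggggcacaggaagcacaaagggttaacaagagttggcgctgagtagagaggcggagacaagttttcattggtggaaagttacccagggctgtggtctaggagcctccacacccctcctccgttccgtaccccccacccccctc
The only motif in these windows is the GC box, with 3 matches for Efna3, 1 for Efna1 and none for Efna4. G and C make up 64.8%, 63.6% and 54.4% of the windows of Efna1, Efna3 and Efna4. A promoter entry was matched for 58 of the 67 genes. Of these 58, 43 (74.1%) held GGGCGG, against 49.9% of the 14452 genes of the arrays with an entry and 32.9% of all 27025 entries. TATAAA was in 2 (3.45%, against 9.02% and 13.0%), those of Efnb2 and Slit2. ACGTG was in 10 (17.2%, against 19.8% and 16.6%) and CACGTG in 3 (5.17%, against 7.56% and 6.05%). The median share of G and C in the windows of the 58 genes was 64.6%, against 57.6% over the 14452 genes. The part of this composition in the GC box counts was not tested. A match is a run of letters and not a measured binding site.

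Of the 3 ephrin-B genes, only Efnb2 was called, in embryonic cells. Efnb2, which marks arteries and takes part in oligodendrocyte precursor migration, read 717, 839.6, 684, 483 and 441 in embryonic control and 1797, 1113, 1819, 1847 and 889 in transduced cells. The groups did not overlap (1.20 ± 0.24, adjusted p = 0.000256). In postnatal cells it was higher without overlap and just under 2-fold, from 1399 ± 444 to 2635 ± 301 (0.96 ± 0.24, adjusted p = 0.00195). Without postnatal control array 2 or 3 this was 1.02 to 1.10 (adjusted p from 0.000638 to 0.00216), and without arrays 4 and 5 it was 0.66 ± 0.23. Efnb1 and Efnb3 had changes between -0.51 and 0.37 and were not called.

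The 9 EphA receptors split evenly in embryonic cells, with 2 rises and 2 falls, and had 2 rises and 3 falls in postnatal cells. Epha5, a receptor of neurons, showed the largest fall by fold of the receptors measured above background in every group. Embryonic control arrays read 10728, 10763, 10150.4, 11272 and 9631 and transduced arrays 966, 1108, 949.7, 1114 and 1079.8. The postnatal control signals were 4046, 3784, 3634, 3534 and 3093, against 1661, 1697, 1579, 1713 and 1646 in transformed cells. Modified arrays were lower at both ages, with changes of -3.31 ± 0.08 (adjusted p = 2.52e-18) and -1.11 ± 0.08 (adjusted p = 1.26e-10), and the responses differed by 2.20 ± 0.11 (adjusted p = 1.16e-12). The 3 other Epha5 probe sets had log2 changes of -2.46 to -2.72 in embryonic cells, all called, and of -0.71 to -0.998 in postnatal cells, under 2-fold.

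Epha7, which can act as a repellent in cortical development, moved the opposite way. Embryonic control arrays read 1698, 1777, 1869, 1978 and 1425 and transduced arrays 8004, 8221, 7552, 7491 and 8379. Postnatal control arrays read 407, 32.4, 186, 147 and 148, above background on 2 of 5, and transformed arrays 1247, 1313, 983, 1244 and 1302. There was no overlap in either, the embryonic change was 2.18 ± 0.33 (adjusted p = 1.22e-05), the postnatal rise had an adjusted p of 1.75e-07, and all 3 other probe sets rose in both. Epha2, a receptor of epithelia that is often raised in tumours, read 42, 158, 199, 77.7 and 501 in embryonic control, above background on 2 of 5, and 847, 1169.6, 1209, 1087 and 1265 in transduced cells. In postnatal control all arrays were below background (35.4, 24.1, 16.7, 18.2 and 14.5), and transformed arrays read 88.4, 184, 274, 173 and 380.5. The modified groups were higher without overlap (adjusted p = 2.75e-05 and 8.08e-05), the postnatal one by at least 1.3-fold.

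Epha3 fell in both. Its signals were 757, 570.1, 866, 772 and 773 in embryonic control and 214, 186, 124, 119 and 155 in transduced cells, above background on 1 of 5. The embryonic groups did not overlap (adjusted p = 0.000188). In postnatal cells they did, with means of 555 ± 344 and 196 ± 89.2 (-1.40 ± 0.41, adjusted p = 0.00745), and the call was lost without arrays 4 and 5 (-0.89 ± 0.43, adjusted p = 0.109) or transformed array 3 (-0.99, under 2-fold). Epha4, which binds ephrins of both classes, fell in postnatal cells from 1030.1 ± 453 to 475 ± 130.4 with overlapping groups (-1.01 ± 0.27, adjusted p = 0.00441). Leaving out any of 5 single postnatal arrays took this under 2-fold, to -0.83 to -0.98 (adjusted p from 0.0111 to 0.0172), as did leaving out arrays 4 and 5 (-0.62 ± 0.28, adjusted p = 0.0778), while 3 of the 4 other probe sets fell, with log2 changes of -1.89 to -1.97, and the remaining one lay near background. In embryonic cells Epha4 was higher by 0.74 ± 0.27, under 2-fold, although 2 other probe sets rose past it there (1.38 and 1.33), and the responses differed by -1.75 ± 0.39 (adjusted p = 0.000841). Epha1, Epha6, Epha8 and Epha10 had means of at most 275 and were called in neither response.

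Among the 4 EphB receptors, 1 rose and 1 fell in embryonic cells and none was called in postnatal cells. The difference between the responses was called for all 4, but that of Ephb4 rests on its embryonic rise alone, since it lay below background in postnatal cells. Ephb4, the receptor of Efnb2, read 458, 419.8, 459, 431 and 688 in embryonic control and 1887, 1785, 1253, 1489 and 1078 in transduced cells. The groups did not overlap (1.57 ± 0.25, adjusted p = 1.84e-05). It lay below background on all 10 postnatal arrays, from 32.7 to 76.7. Ephb6, a kinase-dead member, read 391, 240.2, 603, 347 and 574 in embryonic control and 77.3, 203, 39, 58.1 and 158 in transduced cells. All transduced arrays were below background and lower than control, by at least 2.12-fold (adjusted p = 9.08e-05). Ephb3 was higher in embryonic cells without overlap and under 2-fold (0.92 ± 0.10, adjusted p = 2.17e-07) and had a postnatal value of -0.09 ± 0.10. Ephb1 was higher in embryonic cells (0.56 ± 0.13) and lower in postnatal cells (-0.97 ± 0.13), both without overlap and under 2-fold. It reached -1.01 to -1.04 (adjusted p from 1.53e-06 to 5.45e-06) in postnatal cells without any of 3 single arrays and -1.10 ± 0.14 in postnatal cells without arrays 4 and 5. The differences were -1.53 ± 0.19 for Ephb1 (adjusted p = 8.07e-07) and -1.01 ± 0.15 for Ephb3 (adjusted p = 8.07e-06). That of Ephb3 was under 2-fold without any of 8 single arrays, at -0.95 to -0.996 (adjusted p from 1.76e-05 to 2.79e-05), and that of Ephb6 (adjusted p = 0.0442) lost its call without any of 13, with adjusted p up to 0.0879.

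**Figure D4:**
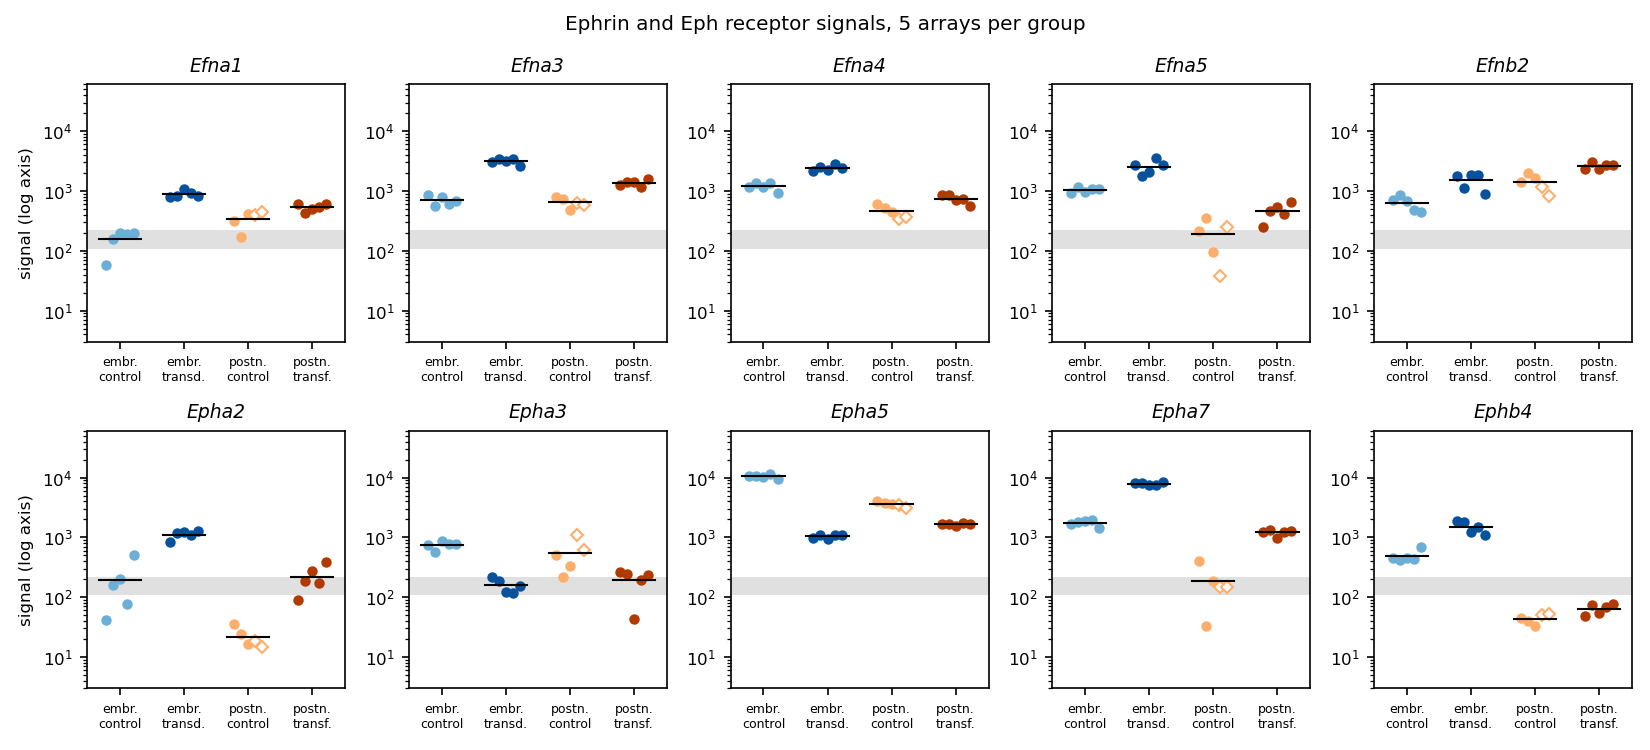
Signals (log axis, arbitrary units) of ephrins and Eph receptors on each array of the 4 groups, with bars at the group means, background range in grey, and open diamonds for postnatal control arrays 4 and 5. Efna1, Efna3 and Efna4 are higher on every embryonic transduced array than in control, Epha5 is lower in both modified groups, and Ephb4 is below background in postnatal cells.

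Among netrins, 1 of 4 was called, and among their Unc5 receptors, which mediate repulsion, 2 fell in embryonic cells and 1 rose in postnatal cells. Ntn1, the founding guidance netrin, read 3951, 3609, 3516, 4942 and 4909.9 in postnatal control and 1573, 1531, 1489, 1585 and 1511 in transformed cells. All transformed arrays were lower (-1.42 ± 0.08, adjusted p = 7.99e-12). In embryonic cells it was lower without overlap and under 2-fold, from 8780.3 ± 276 to 5574 ± 260.1 (-0.65 ± 0.08, adjusted p = 1.3e-06). Ntn4, a laminin-binding netrin, had an embryonic change of 0.87 ± 0.10 (adjusted p = 3.49e-07) without overlap and a postnatal one of -0.20 ± 0.10, neither called. The responses of Ntn4 differed by -1.07 ± 0.14 (adjusted p = 2.74e-06), which was -0.97 (adjusted p = 1.33e-06) and under 2-fold without postnatal control array 2. Ntn3 means were 226 ± 47.1 in postnatal control and 447 ± 67.9 in transformed cells, just under 2-fold without overlap (0.95 ± 0.29, adjusted p = 0.0106) and past 2-fold without postnatal control array 1 or 3 or transformed array 4, at 1.003 to 1.04 (adjusted p from 0.00944 to 0.0132). Ntn5 stayed near background, with means of at most 181.

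Unc5b, a netrin receptor that also acts in blood vessels, had the largest postnatal rise of the receptors measured above background on every array. Its postnatal control arrays read 422, 441, 403, 255 and 489.8 and transformed arrays 3838, 4480.5, 4089.6, 4321 and 4288. Every transformed array was higher (3.36 ± 0.16, adjusted p = 3.8e-13), and a second probe set rose by 2.12. Embryonic control arrays read 1088, 1390, 898, 730.2 and 1019.9 and transduced arrays 2159.8, 1990.2, 2293, 1854 and 1751. These did not overlap, just under 2-fold (0.98 ± 0.16, adjusted p = 3.92e-05) and past it without any of 4 single arrays, at 1.01 to 1.10 (adjusted p from 1.02e-05 to 9.72e-05). The responses differed by 2.38 ± 0.23 (adjusted p = 2.96e-08). Unc5a read 782, 1036, 809, 710.3 and 842 in embryonic control and 331, 48.9, 393, 670.2 and 486 in transduced cells. The transduced arrays were lower without overlap (-1.42 ± 0.40, adjusted p = 0.00646), and array 2 was the lowest by far. Without it the change was -0.85 (adjusted p = 0.00146), under 2-fold. Unc5c fell in embryonic cells from 777 ± 144 to 380.03 ± 212 with overlapping groups (-1.23 ± 0.36, adjusted p = 0.00836), and without the same array the change was -0.79 (adjusted p = 0.0163), under 2-fold. Unc5c and Unc5d were not called in postnatal cells, and Unc5d lay below background on 4 of 5 embryonic control and all 5 transduced arrays, where no fold is given. The embryonic fall of Unc5d passed the p-value limit (adjusted p = 0.0372) but not 2-fold. It was called without any of 6 single arrays (adjusted p from 0.0151 to 0.0462). Quantile normalization, scaling to the 75th percentile and an offset of 1 gave a call as well.

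**Figure D5:**
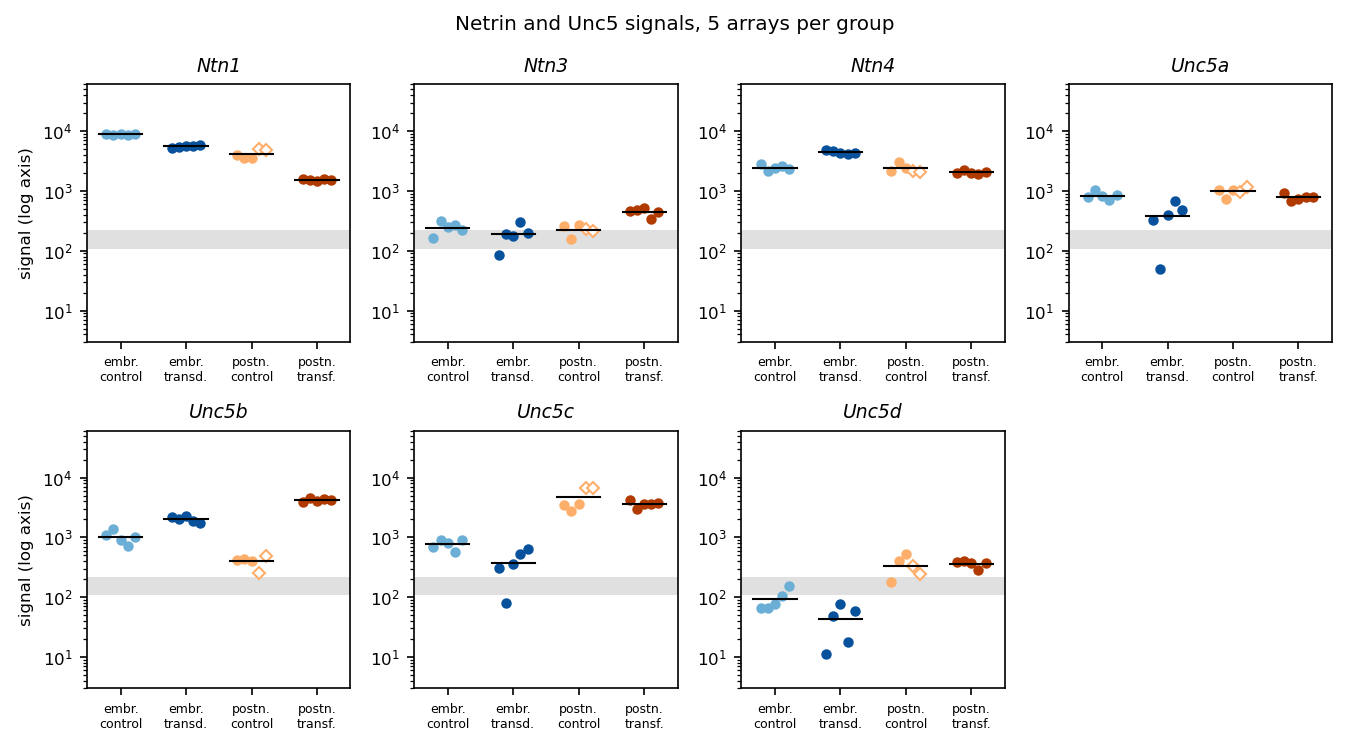
Signals (log axis, arbitrary units) of 3 netrins and the 4 Unc5 receptors on each array of the 4 groups, with bars at the group means, background range in grey, and open diamonds for postnatal control arrays 4 and 5. Unc5b is highest in postnatal transformed cells, Ntn1 is lowest there, and Unc5c and Unc5d are higher in both postnatal groups than in the embryonic ones.

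The postnatal and embryonic responses differed, as an interaction term, for 27 of the 67 genes (40.3%, against 19.1% of all genes). The postnatal response was the higher for 12 (9.36% of all genes) and the lower for 15 (9.75% of all genes). Transduction and transformation cannot be told apart from age in this term, which uses the samples of both responses. The 12 were Sema3a, Sema3c, Sema3d, Sema3e, Sema5a, Plxnb3, Plxnc1, Slit1, Epha5, Ephb6, Ntn3 and Unc5b. The 15 were Sema4a, Sema4d, Sema4g, Sema5b, Nrp1, Nrp2, Slit2, Slit3, Efna1, Efna3, Epha4, Ephb1, Ephb3, Ephb4 and Ntn4. By family, 4 of the 7 class 3 semaphorins were on the first side and none on the second, whereas 3 of the 6 class 4 semaphorins and both neuropilins were on the second and none on the first. Among EphB receptors, 3 of 4 were on the second side. For Sema3a and Sema3c the responses had opposite signs and both were called. Without postnatal control arrays 4 and 5, 28 differences were called, among them 24 of the 27. Those of Sema4d, Slit1 and Ephb3 were lost, and Sema3b, Sema4b, Plxna4 and Unc5c were added.

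Control cells of the 2 ages differed in 25 of the 67 genes (37.3%, against 10.6% of all genes), a comparison that shares its samples with both responses and also holds any difference in region, culture or preparation. Glial markers such as S100b, Gfap, Sox10 and Pdgfra also differed between these controls, and their part was not tested. In postnatal control 12 were higher (4.86% of all genes) and 13 lower (5.72%). Sema3d was higher in postnatal control by 3.71 ± 0.29 (adjusted p = 1.98e-09), Plxnb3 by 2.66 ± 0.44 (1.69 ± 0.28 without arrays 4 and 5), and Unc5c by 2.50 ± 0.36 (adjusted p = 1.29e-05). Without arrays 4 and 5 the differences of Sema3d and Unc5c were 3.12 ± 0.21 and 2.08 ± 0.37. Unc5d had a mean of 93.8 ± 38.3 in embryonic and 335 ± 132 in postnatal control (adjusted p = 0.00143). Sema7a was higher by 1.45 ± 0.17 (adjusted p = 1.16e-06) and was called in neither response. On the other side, the log2 difference was -2.63 ± 0.20 for Sema3c, -2.18 ± 0.16 for Sema3a, -1.54 ± 0.08 for Epha5 and -1.38 ± 0.17 for Efna4. Epha7 was at 1749 ± 209 in embryonic and 184 ± 137 in postnatal control (adjusted p = 5.1e-08). Ephb4 was lower by at least 3.03-fold (adjusted p = 3.47e-09). Without arrays 4 and 5, 21 of the 25 calls remained, and those of Sema4b, Sema4d, Sema5a and Efna1 were lost.

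Modified cells of the 2 ages differed in 37 of the 67 genes (55.2%, against 25.5% of all genes). In postnatal transformed cells 16 were higher than in embryonic transduced cells (11.7% of all genes) and 21 lower (13.7%). All 4 Unc5 receptors were higher, Unc5c by 3.46 ± 0.36 and Unc5d by at least 1.89-fold. Sema3d was higher by 5.26 ± 0.29 (adjusted p = 7.84e-13) and Plxnb3 by 4.63 ± 0.44 (adjusted p = 7.92e-09). Of the 4 EphB receptors 3 were lower, Ephb4 by at least 9.06-fold, and 1, Ephb6, was higher by at least 2.28-fold. Of the 5 ephrin-A genes 3 were lower and none was higher, led by Efna5 with -2.45 ± 0.37 (adjusted p = 7.11e-06).

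Genes that work with these ligands and receptors were taken from a list of 64 co-receptors and intracellular partners, of which 60 were measured. In embryonic cells 4 rose (6.67%, under the 8.61% of all genes) and 10 fell (16.7%, against 5.74%). In postnatal cells 10 rose (16.7%, against 9.56%) and 6 fell (10%, against 6.4%). The median log2 change was -0.06 in embryonic cells, against 0.08 over all genes, and 0.08 in postnatal cells, against -0.00. Among collapsin response mediators, which carry semaphorin signals to the cytoskeleton, Crmp1, Dpysl3 and Dpysl4 fell in embryonic cells. Their log2 changes were -4.29 ± 0.10, -2.05 ± 0.08 and -1.56 ± 0.10 (largest adjusted p = 5.62e-11). Dpysl3 and Dpysl4 fell in postnatal cells as well, with -1.38 ± 0.08 and -2.35 ± 0.10. Dcc, the attractive netrin receptor, fell in embryonic cells from a mean of 5357 to 573 (-3.22 ± 0.18, adjusted p = 4.56e-12). Gpc1, a heparan sulfate carrier that binds Slits, had opposite changes, -1.80 ± 0.07 in embryonic and 1.06 ± 0.07 in postnatal cells (largest adjusted p = 4.59e-11). In postnatal cells Nrcam, an adhesion partner of neuropilins, rose by 1.78 ± 0.09, and Limk1, a kinase that regulates cofilin, by 2.07 ± 0.11 (largest adjusted p = 2.56e-12).

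Probe sets other than the one used for a gene could be read for 13 of the 28 genes called in embryonic cells and 15 of the 22 called in postnatal cells, counting those above background on all 5 arrays of a group compared. In embryonic cells 22 of 23 such probe sets had the direction of the call, 17 of them with an adjusted p under 0.05, and the exception was one of Sema6c. In postnatal cells all 24 had it, 22 with an adjusted p under 0.05. Those of Sema3c, Sema4f, Plxna2, Nrp2 and Efnb2 in embryonic cells and of Nrp2 and Ntn1 in postnatal cells included ones that missed this limit. The cause of these disagreements was not tested. A probe set that was dim in either group entered these counts only through the other group, and dimmer ones were left out. Among those left out were probe sets of Sema5a with values opposite to its embryonic call that did not pass the test. The counts hold for bright probe sets only and are no independent test of the calls.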

How the data were processed

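Total RNA of 20 samples was measured on Affymetrix mouse arrays, 1 array per sample, 5 per group. The deposited table holds 1 linear signal intensity per probe set and array, made by the authors; how it was made is not given in the sources used here, and each array's mean after trimming 2% was 2500.01 to 2500.02, per the deposited values. The 64 control probe sets were removed from 45101. Of the 45037 left, 34945 have 1 gene symbol in the platform annotation, 932 several and 9160 none listed. A gene was represented by its probe set with the highest mean log2 signal over the 20 arrays, giving 18193 genes.

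Signals were taken as log2(signal + 16) with no further normalization. The 4 group means were fitted with limma 3.58.1 (R 4.3.3; lmFit, eBayes with trend, 16 residual degrees of freedom), and p-values were adjusted over all 18193 genes (Benjamini-Hochberg). A gene was called at adjusted p under 0.05 and at least 2-fold. Background was the 95th percentile of 27 bacterial control probe sets per array. A bound compares the brighter group's mean with, per array of a group never above background, the higher of background and signal. The script was tested on simulated data. The members, lists and the option of leaving out postnatal control arrays 4 and 5 were chosen with earlier results of these data known. Genes named with values on every array were those called without overlap of the groups, up to 6 per family with the largest change, and the 3 largest differences between responses; other members have group means, and up to 5 genes per response of the pathway list with the smallest p are named. Within groups, arrays correlated at 0.947 to 0.970 and no 2 held identical values. The number of arrays limits the precision. Same-numbered arrays of control and modified groups did not deviate together, so they were not paired. The labels give no batch. Another normalization, offset, filter, probe set summary, variance model and fold threshold, and leaving out arrays, were tried as alternatives.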

Additional observations from a re-analysis of the deposited data

Results flagged for a closer look

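In 15 of the 248 groups of 5 signals examined, or 6.05%, the highest or lowest array lay far from the others, with a gap to the nearest over 0.71 of the group's range (Dixon's 95% limit); chance alone gives about 1 in 20. Among semaphorins these signals were Sema3e 317 on postnatal control array 5, Sema4g 3106 on embryonic transduced array 5, Sema6a 2557 on postnatal transformed array 3 and Sema6b 436 on embryonic transduced array 5. Among plexins and Robos they were Plxna1 2814 on embryonic control array 2, Plxna3 2704 on embryonic control array 2, Plxnb1 2439 on embryonic control array 1, Plxnc1 2743 on embryonic transduced array 5 and Robo1 10292 on embryonic transduced array 1. Among ephrins, Eph receptors and netrins they were Efnb1 882 on postnatal control array 5, Efnb1 1752 on postnatal transformed array 5, Epha7 983 on postnatal transformed array 3, Ephb4 688 on embryonic control array 5, Ntn5 455 on embryonic transduced array 4 and Ntn5 242 on postnatal transformed array 3. Leaving out such an array ended no call of its own gene in either response or in their difference, and it added a call for the difference of Sema6b. 

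The postnatal minus embryonic difference of log2 responses passed the limma interaction test and 2-fold for 27 genes. The differences above 0 were 3.56 for Sema3a, 3.90 for Sema3c, 1.55 for Sema3d, 2.85 for Sema3e, 2.88 for Sema5a, 1.96 for Plxnb3, 1.31 for Plxnc1, 1.13 for Slit1, 2.20 for Epha5, 1.30 for Ephb6, 1.35 for Ntn3 and 2.38 for Unc5b. Those below 0 were -1.56 for Sema4a, -1.18 for Sema4d, -2.51 for Sema4g, -1.35 for Sema5b, -1.42 for Nrp1, -2.46 for Nrp2, -1.72 for Slit2, -2.96 for Slit3, -1.79 for Efna1, -1.08 for Efna3, -1.75 for Epha4, -1.53 for Ephb1, -1.01 for Ephb3, -1.16 for Ephb4 and -1.07 for Ntn4. Those of Sema3e, Sema4a, Sema5a, Nrp2, Slit3, Efna1, Ephb4, Ephb6 and Ntn3 involve a group above background on fewer than 4 of its 5 arrays, so their size is not exact.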

How the results depend on the processing

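Of the 67 genes, 16 rose and 12 fell in embryonic cells, 13 rose and 9 fell in postnatal cells, and 27 differed between responses, 25 between controls and 37 between modified cells. No called change of a member changed sign under any alternative. With no fold threshold the response counts were 26, 19, 20 and 17. Leaving out 1 array at a time gave 15 to 17, 11 to 13, 12 to 15, 7 to 11, 25 to 29, 20 to 25 and 35 to 38. In the same order, quantile normalization gave 14, 13, 13, 7, 29, 26 and 36, scaling to the 75th percentile 14, 13, 13, 8, 24, 25 and 36, an offset of 64 gave 15, 12, 12, 6, 26, 22 and 35, and the mean of a gene's probe sets 13, 11, 13, 7, 24, 18 and 38. Over the mean of all probe sets the embryonic calls of Sema4d, Sema5a, Sema6c, Nrp2, Efna5 and Efnb2, the postnatal calls of Slit1, Efna5 and Epha5 and the differences of Sema4d, Sema5a, Plxnc1, Nrp1, Nrp2, Slit1 and Efna3 were lost. The embryonic calls of Sema3f and Plxna4, the postnatal call of Efna1 and the differences of Sema3b, Sema4b, Plxna3 and Plxna4 were added. With either or both scalings, calls were lost for Sema6c and Efna4 in embryonic cells, for Sema4a and Epha4 in postnatal cells and for the differences of Efna3, Ephb3 and Ntn4. Both scalings added the embryonic fall of Unc5d (limma adjusted p = 0.0119 and 0.0227). Quantile normalization also added the differences of Sema3b, Sema6b, Plxna4 and Unc5d. An offset of 64 added the difference of Sema3b and ended those of Ephb3 and Ephb6. It also ended the calls of Efna4 in embryonic cells and of Sema4a, Slit1, Slit3 and Epha4 in postnatal cells. A fit without the intensity trend ended those of Sema6c and Plxnb3 in embryonic cells (adjusted p = 0.0571). Those scalings moved the median embryonic change of all genes from 0.08 to -0.02, and that of the members from 0.30 to 0.17 and 0.20. Sample numbers did not pair the arrays (correlation of deviations from -0.06 to 0.06); a fit with the replicate number as a block gave 16, 12, 13, 9, 26, 25 and 37. Of its 26 differences 25 were among the 27, those of Slit1 (adjusted p = 0.0529) and Ephb6 (adjusted p = 0.0659) being lost and that of Plxna4 (2.04, adjusted p = 0.0171) added. Signal over background limits the sizes for the genes given as signals or bounds.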
